A study of Mus musculus with 6 samples.

Results

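The 9 genes considered here are the neurotrophin and Gdnf group of the inner ear. They are the ligand genes Ntf3, Bdnf and Gdnf, the receptor tyrosine kinase genes Ntrk2, Ntrk3 and Ret, the shared neurotrophin receptor gene Ngfr, and the co-receptor genes Gfra1 and Gfra2. Every probe set that the platform annotation assigns to one of these symbols and to no other was taken, which gave 32 probe sets for 8 of the 9 genes, of 18193 genes and 45037 probe sets in all. Ntf3 was not analysed here. RNA came from the otic vesicle, the epithelial sac that becomes the inner ear, dissected from mice at embryonic day 11.5. On the 3 arrays called Mest-KO, the transcription factor gene Tbx1 was knocked out conditionally with T-Cre, a recombinase under control of the Brachyury gene that acts in early mesoderm. The 3 control arrays were T-Cre conditional Tbx1 heterozygotes, so both groups carried T-Cre and the controls carried a Tbx1 deletion on one allele in the same lineage. Both ears of 3 embryos with the same genotype were pooled for each array, so the spread between arrays is one between pools.

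Neurotrophins are secreted growth factors that keep sensory neurons alive and guide their fibres to target epithelia. In the ear, Bdnf is made mainly by the sensory patches and acts through TrkB, the product of Ntrk2, while Ntrk3 encodes TrkC, the receptor for neurotrophin-3, and Ngfr encodes p75, a low-affinity receptor that binds all neurotrophins. Gdnf belongs to a separate ligand family: it binds the membrane-anchored co-receptor encoded by Gfra1 and signals with it through Ret, and Gfra2 encodes the preferred co-receptor of the related ligand neurturin.

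The upstream sequences of the 3 genes whose brightest probe set had no overlap between the groups (Gdnf, Gfra1 and Ngfr) are shown so that their letters stand beside the values. They are the 250 bases before the annotated start in RefSeq, build GRCm38.p6, read 5′ to 3′ along the gene. Capitals mark matches, on either strand, to 5 motifs: TATAAA (the TATA box), CCAAT (the CCAAT box), GGGCGG (the GC box), AGATAA (a form of the GATA site) and AGGTGTGA (a form of the T-box half-site). The set of upstream windows used here held 5 of the 8 measured genes, with 7 windows for Bdnf, 2 for Gdnf and 1 each for Gfra1, Ngfr and Ntrk2.
Gdnf, first start, chr15:7809798-7810047, plus strand: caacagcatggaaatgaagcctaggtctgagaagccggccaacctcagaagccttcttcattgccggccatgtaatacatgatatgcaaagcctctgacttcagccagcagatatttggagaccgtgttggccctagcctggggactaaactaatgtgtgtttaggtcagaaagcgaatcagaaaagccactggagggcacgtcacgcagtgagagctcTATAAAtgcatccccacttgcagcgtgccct
Gdnf, second start, chr15:7813477-7813726, plus strand: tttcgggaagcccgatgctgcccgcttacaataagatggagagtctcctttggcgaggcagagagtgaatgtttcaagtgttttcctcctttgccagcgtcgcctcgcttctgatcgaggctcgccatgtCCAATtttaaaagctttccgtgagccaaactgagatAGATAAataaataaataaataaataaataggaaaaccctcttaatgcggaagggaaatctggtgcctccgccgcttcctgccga
Gfra1, chr19:58455399-58455648, minus strand: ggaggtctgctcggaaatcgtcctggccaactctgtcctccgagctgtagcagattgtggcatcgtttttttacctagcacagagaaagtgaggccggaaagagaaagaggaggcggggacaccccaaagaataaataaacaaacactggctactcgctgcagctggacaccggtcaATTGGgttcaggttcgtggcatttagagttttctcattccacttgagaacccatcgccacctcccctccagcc
Ngfr, chr11:95587699-95587948, minus strand: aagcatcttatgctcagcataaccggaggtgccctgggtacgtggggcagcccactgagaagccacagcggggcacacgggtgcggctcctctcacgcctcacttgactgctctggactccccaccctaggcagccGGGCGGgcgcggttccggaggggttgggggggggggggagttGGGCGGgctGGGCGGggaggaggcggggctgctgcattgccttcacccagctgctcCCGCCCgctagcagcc

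The first Gdnf window held 1 match, a TATA box that began 31 bases before the start, a motif present in 12.4% of all 32851 windows of this length. The second Gdnf window held a CCAAT box and an AGATAA match, motifs found in 33.8% and 10.0% of all windows. Gfra1 had a CCAAT box on the opposite strand. The Ngfr window held 4 GC boxes, against 32.7% of all windows with at least 1, and 70.4% of its bases were G or C, where the median window had 52.4%. AGGTGTGA, found in 1.1% of all windows, was in none of these 4. These matches describe letters only.

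The targeted gene, Tbx1, had intensities of 910, 704 and 713 in Mest-KO and 898, 690 and 766 in control. These overlapped, and they check no label. T-Cre acts in early mesoderm, whereas the RNA came from the otic vesicle, an epithelial sac. The place of the probe set in the gene was also not given in the sources used here. Oc90, a gene of the otic epithelium, stood between 11000 and 12400 on every array. The array Mest-KO 3 stood apart, with a median intensity of 91.0 against 62.1 to 71.0 on the others. Member differences that rest on it are given without it as well, but those of other genes are not. The Mest-KO 1 pool had almost no signal for Xist, from the inactive X chromosome of females (16.1), and the control 2 pool almost none for the Y-linked Eif2s3y (12.1). The mean log2 level of 13 mesenchyme markers lay between 7.35 and 8.98 in Mest-KO and between 7.23 and 8.42 in control. In tissue samples such as these, fewer cells of a type and less RNA per cell cannot be told apart.

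Of the 32 probe sets, 16 were brighter on average than the lower 40% of the table (an intensity of 34.4) and were tested, with at least 1 for each of the 8 genes. None passed: limma gave 0 of 16 at a Benjamini-Hochberg adjusted p under 0.05, against 0% of the 27022 probe sets tested, and the smallest adjusted p among them was 0.493. At an unadjusted p under 0.05 there were 4 of the 16 (25%), where the whole table gave 3.98%. Without Mest-KO 3 there were 6 of 16, where the whole table gave 4.54%, and without any single control array there was 1, where the whole table gave 3.58%, 3.26% and 4.23% without control 1, 2 and 3. The values of the groups did not overlap at 5 of the 16 (31.2%), 3 higher and 2 lower in Mest-KO, where 9.37% of all tested probe sets did not. Both counts hold 1 probe set of Ntrk3 (1433825_at) that passed the filter only through its control values, so it was bound to differ. Over probe sets with both group means above the filter there were 3 of 15 at an unadjusted p under 0.05 (3.75% of 26205 in all) and 4 of 15 without overlap (9.25% in all). Both of these counts hold Gdnf, whose Mest-KO mean lay only just above the filter. Read at 1 probe set per gene, the brightest, 3 of 8 genes did not overlap, against 10.6% of 12462 genes. The members were chosen with earlier results of these data known, so these shares describe them and do not test an excess. With a variance prior that follows level (limma's trend option) 0 of the 16 passed, against 0.0518% of all tested probe sets. Differences below are Mest-KO minus control in log2 units of the quantile-normalized values, with the SE of the limma fit, and intensities are those deposited. There were n = 3 arrays per group, and fewer where an array is left out or only pools of both sexes are used. The pools of both sexes leave out Mest-KO 1 and control 2. The probe sets of a gene share its transcripts and are not replicates.

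**Figure D1:**
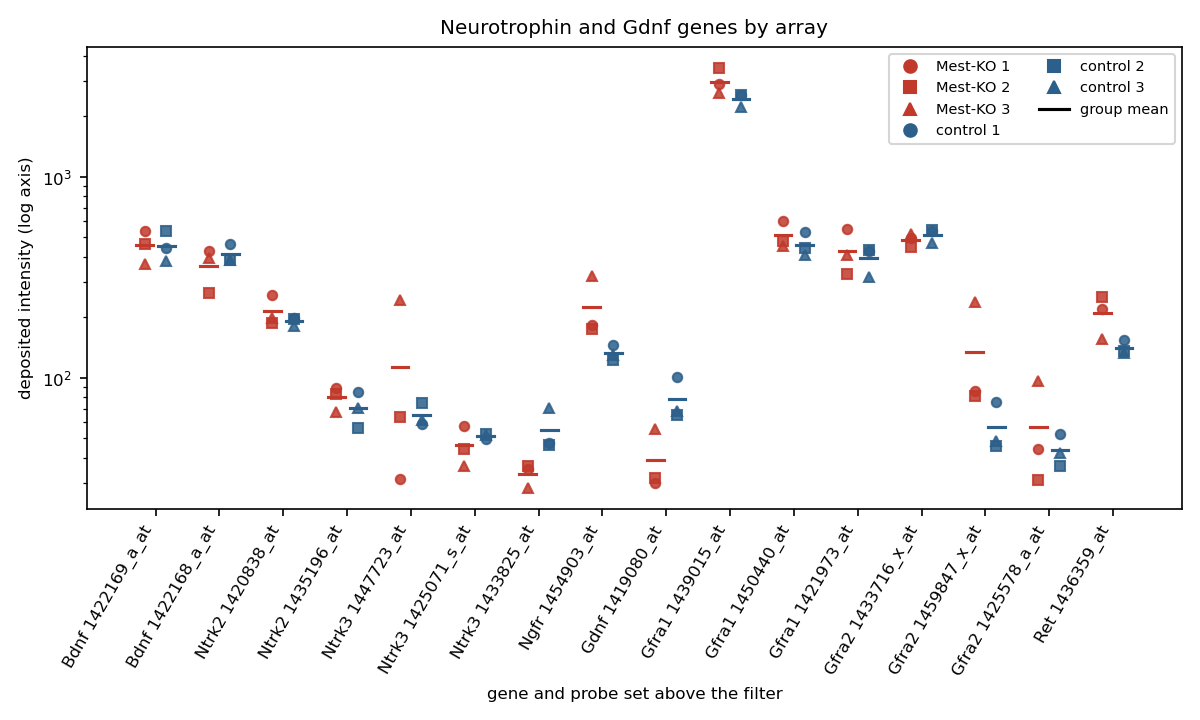
Deposited intensity (log axis) of the 16 probe sets above the filter, grouped by gene; each point is 1 array, red for Mest-KO and blue for control, and bars are group means. The Gdnf points of Mest-KO (29.9 to 55.5) all lie below those of control (65.3 to 101), and the single high Ntrk3 point (245) is the array Mest-KO 3.

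Among the ligand genes, Gdnf had the largest difference of the 16 probe sets. Its only probe set had intensities of 29.9, 31.8 and 55.5 in Mest-KO and 101, 65.3 and 68.2 in control. All 3 Mest-KO pools thus lay below all 3 control pools, with Mest-KO 3 closest to the controls on the deposited scale. The difference was -1.18 (SE 0.162, 95% confidence interval -1.58 to -0.79), which is 2.27-fold lower in Mest-KO. In limma its unadjusted p was 0.00031 and its adjusted p 0.493, so it did not pass over all probe sets. The exact two-sided permutation p was 0.1, the smallest that 3 against 3 arrays allow. With an array left out the difference stayed between -1.28 and -1.03, and it was -1.28 without Mest-KO 3 and -1.18 over pools with RNA of both sexes. The probe set was dim, at a mean log2 of 5.74. Its Mest-KO mean of 5.15 lay only just above the filter, against 6.33 in control. The normalized Mest-KO intensities were 34.3, 34.6 and 37.6, where the filter stood at 34.4. With the trend, which gives dim probe sets a larger error, its SE was 0.311 and its limma adjusted p 0.816. No second probe set read Gdnf.

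Bdnf was read by 2 probe sets, both above the filter. At the brighter one, 1422169_a_at, the intensities were 536, 465 and 369 in Mest-KO and 444, 537 and 381 in control. The ranges were nearly the same, and the difference was -0.02 (SE 0.195, interval -0.49 to 0.46). At 1422168_a_at the intensities were 428, 264 and 393 in Mest-KO and 463, 384 and 386 in control, a difference of -0.24 (SE 0.195). The low value there was that of Mest-KO 2, and without it the difference was -0.04. Changes of either sign within that first interval lie inside the error of these arrays.

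Of the receptors for Gdnf, the co-receptor gene Gfra1 was read by 3 probe sets, all above the filter. Its brightest probe set, 1439015_at, had 2880, 3480 and 2600 in Mest-KO and 2540, 2540 and 2230 in control. The groups did not overlap, although Mest-KO 3 lay only just above the highest controls. The difference was 0.29 (SE 0.135, interval -0.04 to 0.62), with a limma adjusted p of 0.969 and an exact permutation p of 0.1. Its other probe sets, 1450440_at and 1421973_at, differed by 0.12 (SE 0.150) and 0.08 (SE 0.223), with overlapping groups, so that 3 of 3 probe sets lay on the same side of 0 but only 1 separated the groups. Without Mest-KO 2 the difference at 1439015_at was 0.18, and without Mest-KO 1 that at 1421973_at was -0.11. Between pools of both sexes, 1439015_at, 1450440_at and 1421973_at differed by 0.34, -0.01 and -0.02.

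Ret, the kinase through which Gdnf and its co-receptors signal, was read by 1436359_at and by a dim probe set. The brighter one had 221, 252 and 156 in Mest-KO and 155, 136 and 133 in control. Mest-KO 3 was almost level with control 1, and on the normalized scale the groups overlapped. The difference was 0.43 (SE 0.231, interval -0.13 to 1.00; limma adjusted p = 0.969). Leaving out Mest-KO 3 gave 0.71, leaving out Mest-KO 2 gave 0.26, and the pools of both sexes gave 0.37. The probe set below the filter, 1421359_at, had intensities of 31.9, 25.0 and 45.2 in Mest-KO and 19.5, 31.2 and 15.8 in control, and differed by 0.46. At their brightest probe sets Ret and Gfra1 differed from control in the opposite direction to Gdnf, without a pass for any of them. The intervals of Ret and Gfra1 held values of either sign, so their direction is not settled.

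Gfra2, the co-receptor gene for neurturin, gave readings that disagreed. The name of its brightest probe set, 1433716_x_at, ends in x_at, which on this platform marks probes that can also match other transcripts. Its intensities were 495, 445 and 522 in Mest-KO and 536, 545 and 466 in control, a difference of -0.09 (SE 0.113). The probe set 1459847_x_at, of the same kind, had 86.4, 80.8 and 238 in Mest-KO and 75.4, 45.7 and 48.6 in control. Those groups did not overlap, and the difference was 1.01 (SE 0.415; limma unadjusted p = 0.0496, adjusted p = 0.969). It was 0.57 without Mest-KO 3, the array with the high value. At 1425578_a_at, whose name marks probes shared by several transcripts of one gene, the difference was 0.13 (SE 0.300), or -0.18 without Mest-KO 3. Below the filter, 2 more probe sets ranged from 4.46 to 25.7 over the arrays and differed by -0.19 and 0.00.

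**Figure D2:**
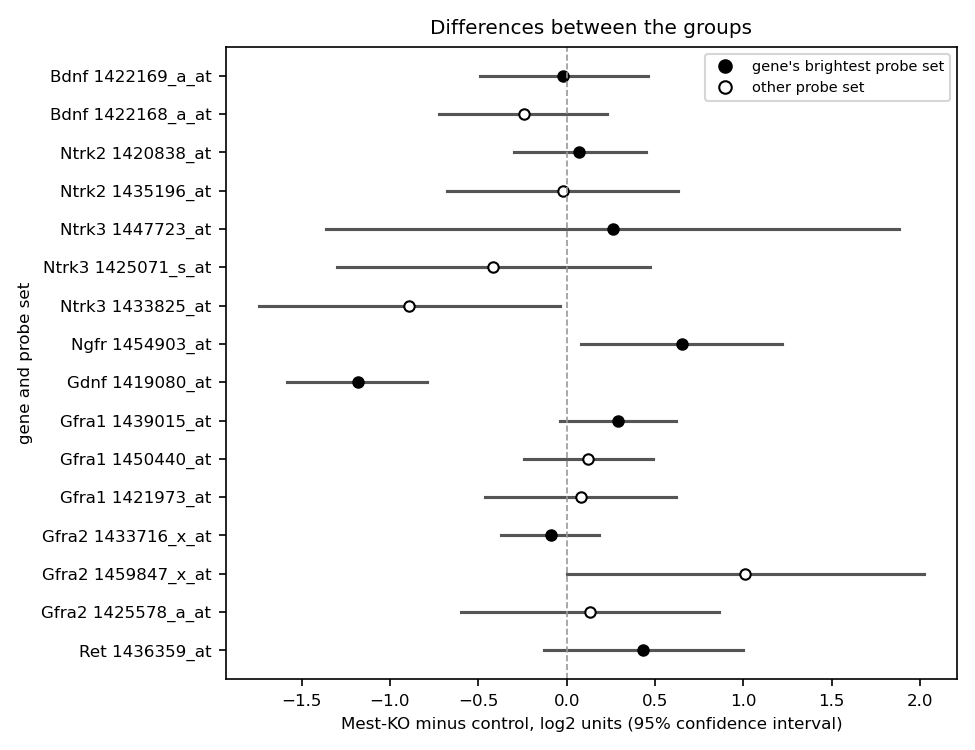
Mest-KO minus control in log2 units at the 16 probe sets above the filter, with 95% confidence intervals of the limma fit; filled points are the brightest probe set of each gene, open points the others. The interval of Gdnf (-1.58 to -0.79) lies farthest from 0, and the wide interval of the brightest Ntrk3 probe set (-1.36 to 1.88) holds the high value of Mest-KO 3.

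Among the neurotrophin receptors, Ngfr was higher on all 3 Mest-KO arrays. Its probe set 1454903_at had 183, 174 and 322 in Mest-KO and 145, 123 and 130 in control. Mest-KO 3 was far above the others, but Mest-KO 1 and 2 also lay above every control. The difference was 0.65 (SE 0.234, interval 0.08 to 1.22), 1.57-fold higher, with a limma unadjusted p of 0.0308, an adjusted p of 0.969 and an exact permutation p of 0.1. Without Mest-KO 3 it was 0.40 (limma unadjusted p = 0.0139), so that array moved the value by more than 1.5 times. That p was the smallest with 1 array left out, and the largest limma unadjusted p was 0.0801. Its 2 other probe sets lay below the filter, with intensities from 3.05 to 31.4 and differences of -0.56 and -0.17. Ngfr is also expressed in neural crest and in some mesenchyme. Of 5 neural crest and glia markers above the filter 4 were higher in Mest-KO and 1 lower (median 0.04), and the means of that list lay between 10.15 and 10.24 in Mest-KO and between 9.90 and 10.48 in control. In that list Cdh6 was the only marker above the filter without overlap, at 199, 174 and 243 in Mest-KO and 105, 143 and 117 in control. Like Ngfr it was highest on Mest-KO 3, and it differed by 0.69 (SE 0.185; limma unadjusted p = 0.00923, adjusted p = 0.969). Sox10 differed by 0.00 (SE 0.121) and Fabp7 by -0.73 (SE 0.740), and Foxd3 and Cdh19 lay below the filter. Which cells gave the bright signals of Sox10 and Erbb3 in this list was not tested, so its means need not follow crest and glia. Of 13 mesenchyme markers 11 were higher and 2 lower (median 0.41), and their mean on Mest-KO 3, at 8.30, was below that of Mest-KO 2, at 8.98. The part of these cells in the Ngfr difference was not tested.

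Ntrk2, the TrkB gene, was read by 8 probe sets, of which 2 lay above the filter. At 1420838_at the intensities were 257, 187 and 199 in Mest-KO and 199, 196 and 182 in control, and the difference was 0.07 (SE 0.154, interval -0.30 to 0.45). At 1435196_at they were 89.4, 82.8 and 67.2 in Mest-KO and 84.5, 56.1 and 71.1 in control, a difference of -0.02 (SE 0.268). The groups overlapped at both. The second value turned with the arrays used: leaving out Mest-KO 3 gave 0.28, leaving out Mest-KO 1 gave -0.20, and pools of both sexes gave -0.29. The first was 0.16 and -0.07 when those same arrays were left out. The other 6 ranged from 0.723 to 55.5 over the arrays, with differences from -0.21 to 1.63 that have no test. Probe sets of Ntrk2 may read the full-length and the kinase-less forms of TrkB apart, but the form that each of them reads was not given in the sources used here.

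Ntrk3, the TrkC gene, was also read by 8 probe sets, and in normalized log2 values its brightest went against the other 7. At 1447723_at the intensities were 31.3, 63.5 and 245 in Mest-KO and 59.0, 75.2 and 61.9 in control. Mest-KO 1 was the lowest and Mest-KO 3 the highest of the 6 arrays, and the difference of 0.26 (SE 0.664) turned to -0.52 without Mest-KO 3. At 1433825_at they were 35.0, 36.6 and 28.4 in Mest-KO and 47.5, 46.5 and 70.4 in control, without overlap. That difference was -0.89 (SE 0.348, interval -1.74 to -0.04), and -0.54 without Mest-KO 3. Its Mest-KO mean lay below the filter, at 4.93 in log2 units against 5.82 in control, so its p is not read as a result. At 1425071_s_at it was -0.42 (SE 0.363), and -0.01 without Mest-KO 3. The 5 probe sets below the filter had intensities from 1.91 to 42.4 and differed by -1.57 to -0.33. All 5 were lower in Mest-KO in mean normalized log2 value, with overlapping groups. As deposited, 2 of them averaged higher in Mest-KO: 1455917_at (21.4 against 15.3 in control) and 1422329_a_at (15.5 against 14.7). The mean of the 3 probe sets above the filter differed by -0.35. That mean takes in 1433825_at, so it is not read as a result either.

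**Figure D3:**
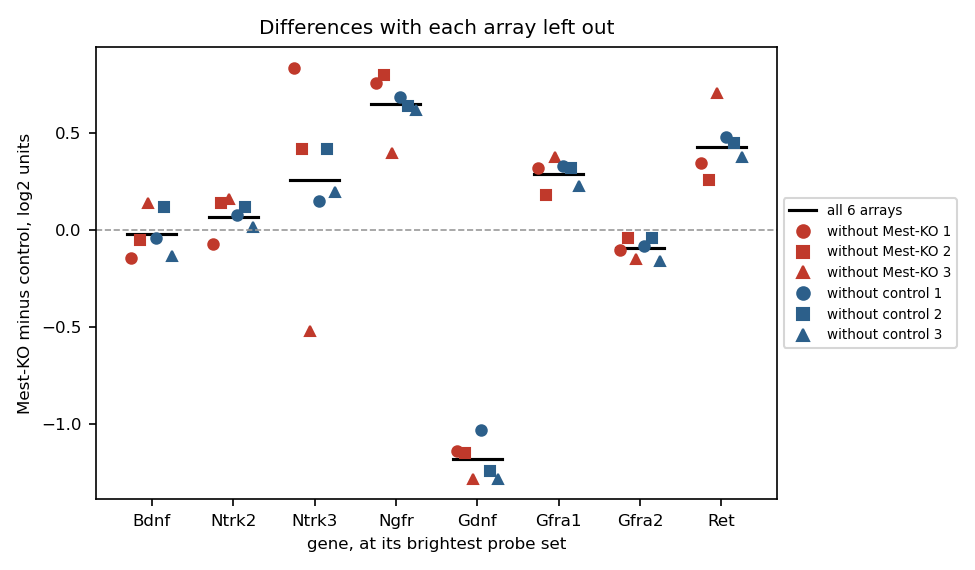
Mest-KO minus control in log2 units for each gene at its brightest probe set, over all 6 arrays (black bar) and with each array left out in turn (points; the colour and shape name the array left out). Gdnf stays between -1.28 and -1.03, Ngfr between 0.40 and 0.80 and Ret between 0.26 and 0.71, while Ntrk3 runs from -0.52 to 0.84.

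For the members that varied by more than 1 log2 unit over the arrays at their brightest probe set, the 2 genes with the most similar course over the 6 arrays were taken, after each gene was centred on its mean. The measure was the mean absolute difference from the member's centred log2 values. For Gdnf they were Itih5 (0.083), of the inter-alpha-trypsin inhibitor heavy chains, and Scara3 (0.104), a scavenger receptor gene, where the median over all genes was 0.595. Itih5 had intensities of 755, 777 and 797 in Mest-KO and 1980, 1760 and 1660 in control, and its difference was -1.21. Scara3 had 317, 304 and 368 in Mest-KO and 782, 608 and 531 in control, and its difference was -0.98. All 3 genes were highest in control 1, and in all 3 every Mest-KO array lay below every control. For Ngfr they were Mageb3 (0.0453) and Mau2 (0.0624), with a median over genes of 0.359. Mau2, a cohesin loading factor gene, had 699, 695 and 1050 in Mest-KO and 526, 493 and 509 in control. For the brightest Ntrk3 probe set they were Sntg1 (0.178) and 9930021J03Rik (0.190), both also highest on Mest-KO 3, at 149 and 122. The arrays share groups and pools, and the closest genes were picked from many, so these are descriptions.

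**Figure D4:**
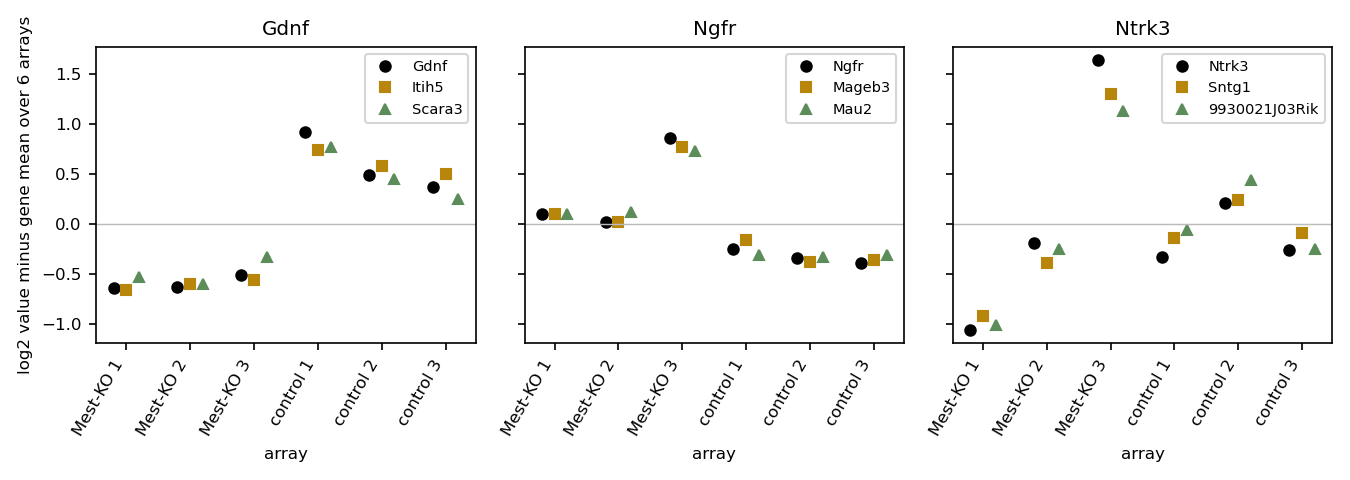
Normalized log2 values, centred on each gene's mean over the 6 arrays, for Gdnf, Ngfr and Ntrk3 (black circles, at the brightest probe set) and the 2 genes closest to each; each point is 1 array. Gdnf, Itih5 and Scara3 lie below 0 on the 3 Mest-KO arrays and above it on the 3 controls, and Ntrk3 and its neighbours are high on Mest-KO 3 and low on Mest-KO 1.

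The other genes of these pathways, each read at its brightest probe set, gave no call either: 0 of 49 above the filter passed over all probe sets, against 0% of 12462 genes, and 2 had an unadjusted p under 0.05 in limma, where 4.06% of genes had. Of 9 genes for other ligands, their processing and sorting, 7 were higher and 2 lower in Mest-KO (median 0.04, against -0.0033 over all genes). Pcsk5, a proprotein convertase gene, differed by 0.58 (SE 0.216), with -0.37 at 2 other probe sets above the filter. The Trk ligand gene Ntf5 differed by 0.20 (SE 0.221) and the convertase gene Pcsk6 by -0.14 (SE 0.212). Of 19 adaptors and effectors of Trk and p75, 9 were higher and 10 lower (median -0.04). Their smallest p values were those of Traf4, a p75-binding adaptor gene, at 0.32 (SE 0.145), Lingo1, a p75 partner gene, at 0.40 (SE 0.202), and Bex3, a p75-binding cell death factor gene, at -0.17 (SE 0.0892).

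Of 13 other genes of the Gdnf family and of Ret signalling, 10 were higher and 3 lower (median 0.12). Sdc3, which encodes a syndecan that can bind Gdnf, had intensities of 433, 388 and 347 in Mest-KO and 525, 504 and 446 in control. The groups did not overlap, and it differed by -0.36 (SE 0.125; limma unadjusted p = 0.0264, adjusted p = 0.969), while other probe sets gave 0.57 above and 0.18 below the filter. Gfra3, the co-receptor gene for artemin, had 162, 102 and 153 in Mest-KO and 112, 80.1 and 80.8 in control, a difference of 0.49 (SE 0.212). Nrtn, which encodes neurturin, differed by 0.69 (SE 0.557), and Artn, which encodes artemin, lay below the filter. Etv4 and Etv5, transcription factor genes downstream of Ret in the kidney, differed by 0.24 (SE 0.108) and 0.14 (SE 0.115), and Etv4 gave -0.54 at a second probe set. Of 8 genes that Trk signals can induce, 6 were higher and 2 lower (median 0.32), with Dusp6 at 0.16 (SE 0.133), Egr2 at 0.47 (SE 0.467) and Klf4 at 0.17 (SE 0.183). The mean log2 level of that list lay between 7.72 and 8.59 in Mest-KO and between 7.46 and 8.38 in control.

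The cells that carry these receptors and make these ligands were read from marker lists, with no test of a list. Among 14 markers of otic neuroblasts and ganglion neurons, 7 were higher and 7 lower (median 0.05), and the list averaged 8.17, 8.36 and 7.76 in log2 units in Mest-KO and 8.03, 7.76 and 8.02 in control. In that list 3 genes had a limma unadjusted p under 0.05, all higher in Mest-KO without overlap and none past the adjusted threshold: Insm1, a neuroblast factor gene (1.04, SE 0.224), Neurod1, a neuronal differentiation factor gene (0.57, SE 0.151), and Elavl3, which encodes a neuronal RNA-binding protein (0.38, SE 0.129). Isl1, the brightest, differed by -0.06 (SE 0.0901). Of 9 prosensory markers 5 were higher and 4 lower (median 0.12), with Sox2 at 0.18 (SE 0.108) and Hey1 at -0.17 (SE 0.104). Of 11 epithelial markers 2 were higher and 9 lower (median -0.03), with Krt18 at -0.21 (SE 0.112) and Oc90 at 0.00 (SE 0.0888). Among the mesenchyme markers (mesenchyme is a source of Gdnf in other organs), 11 of 13 were higher and 2 lower. The list means by array overlapped, at 7.35 to 8.98 in Mest-KO and 7.23 to 8.42 in control. Snai2 was at 0.56 (SE 0.132) and Lum, the brightest, at -0.48 (SE 0.131). Lum had 1150, 1050 and 991 in Mest-KO against 1740, 1400 and 1330 in control, and Pou3f4, the other lower marker, differed by -0.43 (SE 0.777). Erbb3, the brightest of the crest list, differed by 0.04 (SE 0.0871). Fewer markers of other cells passed the filter: 3 endothelial (3 higher; Flt1 0.69, Tek 0.17), 3 hindbrain (1 higher; Lhx1 -0.67, Lmx1a -0.05, Zic1 0.64), 4 macrophage (4 lower; Fcer1g -0.86, Mrc1 -0.30) and 4 red cell markers (1 higher; Klf1 -0.34, Hbb-y 0.07). Which cells gave the signals of Lmx1a and Zic1 was not tested, so the hindbrain list need not follow hindbrain tissue. The part of any of these cell types in the members' differences was not tested.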

How the data were processed

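The authors deposited 1 table of probe set intensities on a linear scale. They were made with Affymetrix Expression Console 1.1, per the submitters' processing notes; how probes were summarised and background was handled was not given in the sources used here. On every array the mean after trimming 2% at each end is 500, a scaling by the authors. No detection calls were used. Per the labels, RNA (300 ng per array) was taken after dispase at 37 °C for 30 min.

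After 64 control probe sets were left out, values under 1 were raised to 1, converted to log2 and quantile normalized over the 6 arrays. Probe sets with a mean above the 40th percentile were tested in R 4.3.3 with limma 3.58.1 (eBayes with 1 prior, no covariate; Benjamini-Hochberg over 27022 probe sets, threshold 0.05), after a test on simulated data. Members below the filter have values but no test. Symbols came from the platform annotation, brought up to date by RefSeq gene ID for 34741 of them; 932 probe sets with several symbols were not named.

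Named were all members, the 3 pathway genes of smallest p per list, the brightest marker and that of smallest p per cell type, and the genes of closest course; Nrtn, Artn, Etv5, Sox10, Fabp7, Foxd3, Cdh19, Neurod1, Elavl3, Pou3f4 and Zic1 were added after their values were seen. The members and lists were chosen with earlier results of these data known. The same replicate number did not mark arrays that deviated together (correlations of -0.0409, -0.00655 and 0.0329), so the main fit had no block. Alternatives covered filters, scaling, floor, trend, array weights, block, arrays left out, pools and 1 value per gene. The counts over probe sets with both group means above the filter were added after the data were seen. Plots used Python 3.11.15 and matplotlib 3.10.9.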

Additional observations from a re-analysis of the deposited data

Results flagged for a closer look

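Outside the comparisons, the 27 control probe sets that read Bacillus RNA had their highest median on Mest-KO 3, at 14.4, above each of the control arrays (at most 5.62). Of the 16 member probe sets above the filter, 4 were highest on the same array (25%), where 18.2% of all tested probe sets were: those of Ngfr, Ntrk3 (1447723_at) and Gfra2 (1459847_x_at and 1425578_a_at). Below the filter it was 2 of 16 (12.5%), against 23.4%. These ranks are of the quantile-normalized values, whereas the Bacillus medians are of deposited ones. As deposited, more dim member probe sets were highest on Mest-KO 3, such as 1458622_at of Ntrk2 (55.5, at most 40.6 elsewhere). After normalization that one was not (37.5, against 39.7 on control 1). Whether the Bacillus signal and these ranks go together was not tested.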

How the results depend on the processing

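None of the member probe sets passed the adjusted threshold under any alternative run, and none of the pathway genes did. The count of all probe sets past it, 0 in the main fit, was 1 without a filter, 9 with a filter at the 60th percentile (fewer probe sets tested), 15 with median centring, 14 with the trend, 17 when the trend was fitted robustly and 1 at a threshold of 0.10. The count of member probe sets at an unadjusted p under 0.05, added after seeing the data, was 4 in the main fit. It was 2 of 32 without a filter (3.7% of all probe sets in that fit), 2 of 27 at the 20th percentile (3.51%) and 2 of 9 at the 60th (5.19%), which drops, among others, Gdnf and Ntrk3. It was 2 with the replicate number as a block (4.24%) and 1 between pools of both sexes (4.47%). With an array left out it ran from 1 to 6: it was 1 without control 1, 2 or 3 (3.58%, 3.26% and 4.23%), 4 without Mest-KO 1 or Mest-KO 2 (6.82% and 4.24%) and 6 without Mest-KO 3 (4.54%). The block changed no adjusted call.

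At their brightest probe sets, Gdnf, Gfra1, Ngfr and Ret kept their direction under every alternative that could test them. Bdnf, at -0.02, was 0.01 with the deposited scaling and 0.0028 between pools of both sexes, and ranged from -0.14 to 0.14 when arrays were left out. Ntrk2, at 0.07, was -0.01 with median centring and -0.02 between pools of both sexes, and from -0.07 to 0.16 when arrays were left out. Ntrk3, at 0.26, was -0.35 with the mean of probe sets and reached -0.52 and 0.84 when arrays were left out. Gfra2, at -0.09, was 0.35 with the mean of probe sets. The cause of these turns was not tested. With median centring the median difference over all tested probe sets was -0.123, against -0.007 with quantile normalization, and the differences of Gdnf, Ngfr, Ret and Gfra1 were then -1.18, 0.56, 0.39 and 0.14. With 3 arrays a group and no detection calls, dim probe sets such as that of Gdnf carry the least certain values.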
